A study of Ovis aries with 3 samples.

Results

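Transcripts that were abundant in the duodenum, the cecum and the colon of sheep at once, and at nearly the same level in all 3 regions, are described here. A transcript was taken when its RPKM (reads scaled to the exon length and to the read total of the library) was at least 300 in every region and its highest region was below 1.5 times its lowest. Where transcripts had an exon in common, identical in position and reads, the first by identifier was kept. The rule left 161 of the 202 transcripts that reached an RPKM of 300 throughout (79.7%), out of 68818 mRNA transcripts with reads in any region. Before transcripts with a shared exon were joined, the rule held for 266 of 339. Because level and ratio chose the transcripts, their levels and ratios are a description and were not tested.

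The tissue was mucosal epithelium from small-tailed Han ewes, 11 months old, with no treatment named in the labels, and was taken from duodenum, cecum and proximal colon. Tissue of 3 ewes was pooled per region, and 1 library was sequenced from each pool, so no spread between animals can be given and no value below has a replicate check. The Texel libraries were not analysed here. Reads summed over distinct exons were 68649323 in duodenum, 64368455 in cecum and 74984599 in colon, which is 1.35, 1.39 and 1.39 times the read totals in the deposited headers.

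Cells of every kind need ribosomes, translation factors, actin, chaperones, ubiquitin and an energy supply, and the genes for these functions are commonly called housekeeping genes. Several of them serve as reference genes in quantitative PCR, where a transcript is useful only if it stays level between the samples compared. The intestinal lining is renewed continually from its crypts, which demands much protein synthesis, and its epithelial cells also carry surface, junction and secreted proteins of their own. The duodenum is a site of digestion and absorption, and the cecum and proximal colon are fermentation chambers.

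Genes of protein synthesis were the largest group among the steady transcripts with a gene symbol. A symbol could be given to 83 of the 161, including 17 with only a LOC number, and 78 had none. Of the 83, 26 were in the lists of cytosolic ribosomal proteins and ribosomal fusion proteins, which do not hold the further member RPL36AL, 7 coded for translation factors and proteins met by the nascent chain, and 7 for subunits of ATP synthase. The others included actins, cofilin, ubiquitin, chaperones, ferritin heavy chain, mitochondrial carriers and 4 proteins of the epithelial surface or secretion. The highest over lowest ratio of the 161 had a median of 1.22 and ran from 1.02 to 1.49, with 96 transcripts within 25% and 13 within 10% between the lowest and the highest region. In 37 of them the RPKM was at least 1000 in every region. Together they took 9.26% of the reads on distinct exons in duodenum (95% Wilson interval 9.25% to 9.26%), 9.35% in cecum (9.34% to 9.35%) and 8.14% in colon (8.13% to 8.14%). These intervals, and all that follow, cover the counting of reads only. The Wilson intervals treat summed exon counts as separate reads, although the sums exceed the read totals of the headers.

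**Figure D1:**
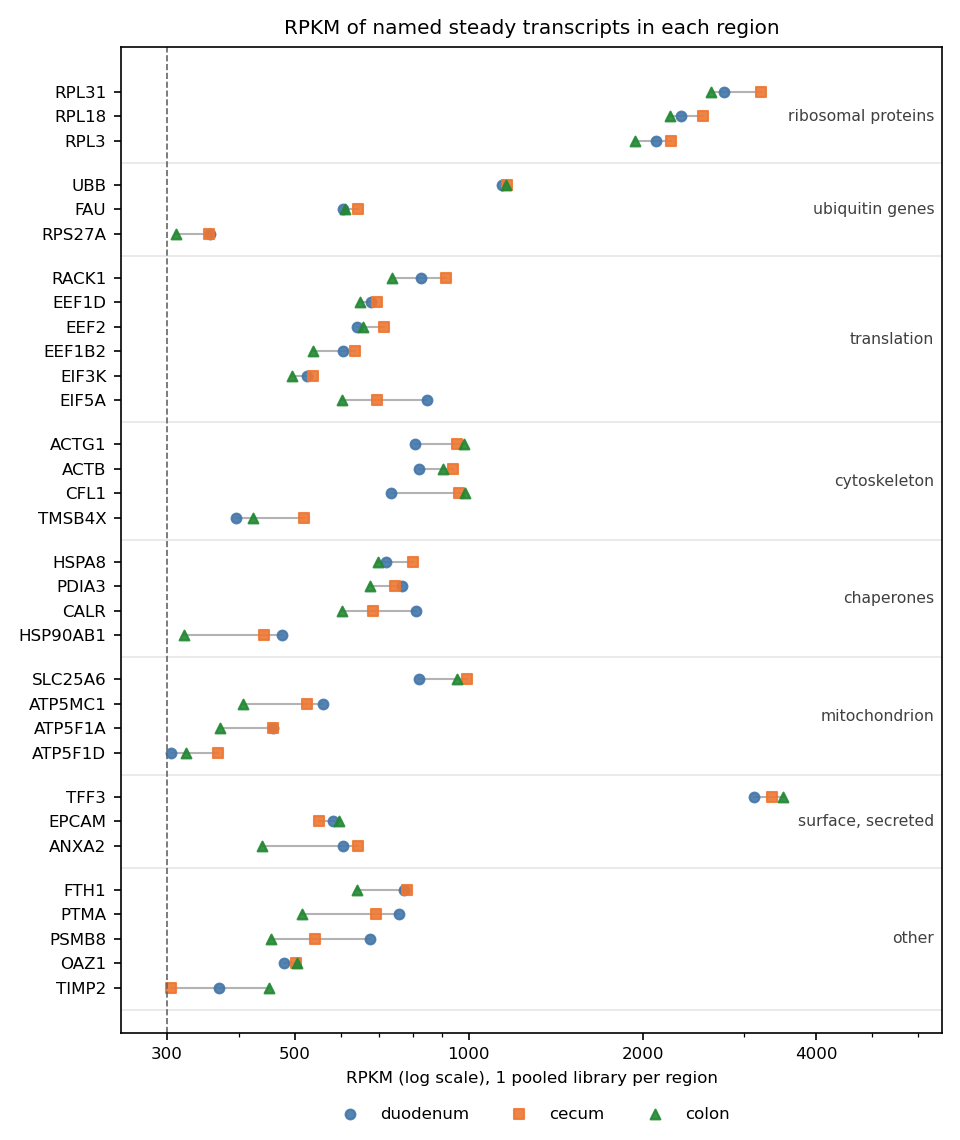
RPKM (horizontal log axis) of named steady transcripts in the duodenum (circles), cecum (squares) and colon (triangles), 1 pooled library per region, grouped by function. The grey line joins the lowest and highest region, and the dashed line is the limit of 300. UBB spans 1140 to 1167, while HSP90AB1 and TIMP2 nearly fill the allowed range.

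The transcript with the highest level was LOC443295 (NM_001009284.2), with an RPKM of 11390 in duodenum, 9183 in cecum and 10066 in colon. It was lowest in the cecum, one of only 8 of the 161 with that order, and its ratio was 1.24 (95% interval 1.232 to 1.248). The gene table gives LOC443295 no name, but the transcript shares 2 exons with XM_012180604.1, which the table names B2M, the light chain of MHC class I molecules. That longer transcript of 4 exons had an RPKM of 6263, 5049 and 5589 in the same order.

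Next to it stood XM_012157791.1, which has no symbol, at 4478 in duodenum, 5190 in cecum and 4495 in colon. Trefoil factor 3 (TFF3), a small peptide that goblet cells secrete with mucus, came next, at 3117, 3357 and 3499. Its level thus ordered as duodenum, cecum, colon, with a ratio of 1.12 (1.11 to 1.13). TFF3 stood in contrast to the neighbouring gene of the same family on the reference chromosome, TFF2, whose 86.5-fold ratio was the largest among the 202 abundant transcripts. TFF1, the next trefoil gene there, was low, at 15.8 in duodenum, listed at 0 in cecum and 1.09 in colon. TFF3 was thus the steady one of 3 trefoil genes, and its 3 exons had ratios between 1.11 and 1.20.

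Ribosomal proteins took 4 of the next 7 places. RPL31, of the large subunit, gave 2769 in duodenum, 3208 in cecum and 2631 in colon. For RPL18, of the same subunit, the values were 2331, 2541 and 2235. The order was the same in both: cecum, duodenum, colon. Of these 7, 3 others, XM_004017413.2, XM_012150493.1 and XM_012161896.1, had no symbol, with levels from 2122 to 3093 in the 3 regions and the same order. Lower ribosomal members reached down to 310.9 (RPS27A, colon), and 18 of the 26 had at least 1000 in every region.

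**Figure D2:**
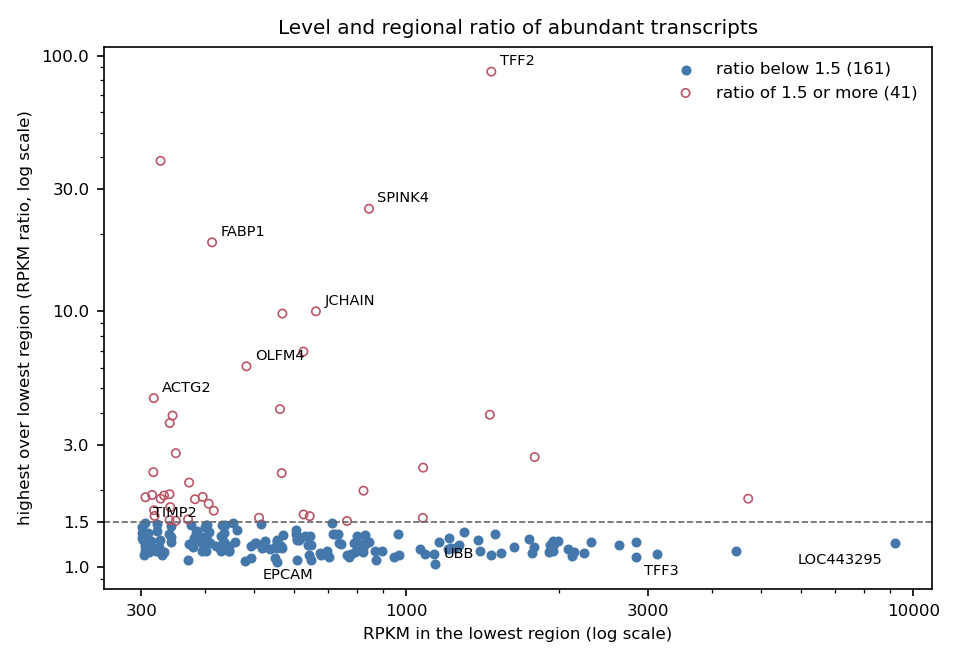
RPKM in the lowest region (horizontal log axis) against the highest over lowest ratio (vertical log axis) for the 202 transcripts that reached an RPKM of 300 in every region. Filled points are the 161 below the dashed limit of 1.5, open points the other 41, up to TFF2 at 86.5.

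The share of transcripts below a ratio of 1.5 differed with the level. Among the 14040 transcripts that reached an RPKM of 1 in every region it was 62.2%, with a median ratio of 1.37. It was 55.2% where the lowest region had an RPKM of 1 to 10, 72.6% from 10 to 100, 71.8% from 100 to 300, 77.8% from 300 to 1000 and 86.0% (37 of 43) from 1000 up. Few reads add counting error to a ratio, so the lowest class is not comparable with the others in precision. The 161 steady transcripts had from 983 to 223480 reads in a region, with a median of 26496. The 95% interval of their ratios had a median half-width of 1.68% of the ratio and a widest one of 8.99%. None of the 161 intervals included 1, and 5 reached across the limit of 1.5. Each compared the region picked as highest with that picked as lowest, so leaving out 1 is no test of a regional difference.

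The other 41 abundant transcripts show what the rule left out. Beyond TFF2, the largest ratios were those of XM_012153721.1 (38.8) and SPINK4 (25.2), both highest in the colon, of the fatty acid binding protein FABP1 (18.6) and JCHAIN (9.999), both highest in the duodenum, and of XM_012158947.1 (9.80). After them came LOC101103222 (6.96), the crypt marker OLFM4 (6.09), the smooth muscle actin ACTG2 (4.58) and LOC101107171 (4.14). Just inside the ratio limit lay PSMB8 (1.481), TIMP2 (1.482) and XM_012133853.1 (1.491). Just outside it were the protease inhibitor cystatin C, CST3 (1.514), LOC101117112 (1.518) and the calmodulin gene CALM3 (1.526). At the level limit, XM_012131137.1, XM_012133765.1 and XM_012140976.1 were inside with lowest regions of 300.2, 300.9 and 301.4. XM_004013745.2, RPS6 and XM_012163903.1 were outside with 299.0, 298.4 and 297.3.

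Ribosomal proteins assemble with ribosomal RNA into the small and large subunits of the ribosome. Counting each symbol once, by its transcript with the highest mean RPKM, 28 large subunit genes had RPKM of at least 1 in every region, 17 had at least 300, and all of these 17 were steady. RPL36AL, a close relative of RPL36A that the list lacks and these counts leave out, had 444.0 in duodenum, 410.5 in cecum and 321.6 in colon and a ratio of 1.38. In the small subunit the numbers were 18, 10 and 9. The exception was RPS26, at 488.9 in duodenum, 745.1 in cecum and 396.2 in colon, a ratio of 1.88. Over all symbols, 83 of the 113 at 300 or more were members. At any level, 24 of 28 large subunit genes (85.7%) and 13 of 18 small subunit genes (72.2%) had ratios below 1.5, beside 62.9% of the 5288 genes with a symbol and RPKM of at least 1 in every region. Their median ratios were 1.24 and 1.28, against 1.36 over all symbols.

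Some ribosomal protein symbols were matched only to transcripts of low level. RPL37 had an RPKM of 18.3, 20.0 and 18.4, RPL23A 17.0, 17.95 and 12.8, RPL7 10.1, 15.1 and 7.62, and RPS15A 3.37, 1.83 and 2.12. All 4 were far below RPL31. Only 25422 of 68818 transcripts had a symbol, so whether these genes have abundant transcripts among the unnamed ones cannot be told. Ribosomal protein genes have many processed copies in mammalian genomes, and how the authors placed reads that match several copies was not tested.

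In 24 of the 26 ribosomal members of the lists the colon was lowest, as it was in 127 of all 161 members (78.9%) and, with totals that leave out the 10 transcripts with the most reads, in 91 of the 161. Among the 26 the cecum was highest in 16 and the duodenum in 10. Their median log2 ratio was 0.03 for cecum relative to duodenum and -0.20 for colon relative to duodenum. They took 2.15% of the exon reads in duodenum, 2.19% in cecum and 1.84% in colon. The widest ratio among them belonged to RPL36A, at 496.1, 495.2 and 342.6, a ratio of 1.45 (1.41 to 1.49).

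Ubiquitin is a small protein that marks others for degradation, and several genes code for it, either as a chain of repeats or fused to a ribosomal protein. The polyubiquitin gene UBB had the smallest ratio of all 161 transcripts, with an RPKM of 1140 in duodenum, 1167 in cecum and 1161 in colon. The ratio of UBB was 1.02 (1.01 to 1.04). Its 3 exons did not move together to that degree. The middle exon had 1427, 1447 and 1536 and the last 1056, 1002 and 866.5, so colon was highest in one and lowest in the other.

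RPS27A, a fusion of ubiquitin to a small subunit protein, had 357.3, 355.2 and 310.9. FAU, in which a ubiquitin-like domain precedes a small subunit protein, was among the 10 steadiest, at 606.9, 644.6 and 611.6 and a ratio of 1.06 (1.04 to 1.08). For RPS27A the kept transcript was not the one with the most RPKM, which had 510.6, 575.5 and 448.5 and a ratio of 1.28 in place of 1.15. Among the 34 ubiquitin and proteasome genes with RPKM of at least 1 everywhere, 30 (88.2%) were below 1.5, beside 62.9% of all symbols. At 300 or more, 5 of 6 were members, beside 83 of all 113 symbols. The sixth was PSME1, an activator subunit of the proteasome, at 659.7, 424.2 and 346.7. PSMB8, an immunoproteasome subunit, ordered likewise at 674.3, 541.9 and 455.2 and lay just inside the ratio limit.

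Of the translation factors, 24 of 25 (96.0%) had ratios below 1.5, a higher share than in any other list but the histones with 2 of 2. The share over all symbols was 62.9%. All 7 translation factors at RPKM of 300 or more were members, as were 83 of all 113 symbols at that level. RACK1, a scaffold protein on the small subunit, had 826.0 in duodenum, 913.3 in cecum and 737.7 in colon. LOC100135455, whose synonyms in the gene table are TCTP and TPT1, had 771.1, 729.7 and 704.7. EEF2, which moves the ribosome along the mRNA, had 641.2, 712.8 and 657.0. EEF1D and EEF1B2, exchange factors that recharge the elongation factor carrying tRNA, had 676.9, 694.0 and 648.5, and 605.9, 635.1 and 537.7. EIF3K, a subunit of an initiation factor, had 525.7, 538.1 and 494.4. EEF1D (ratio 1.07) and EIF3K (1.09) were among the 10 steadiest. EIF5A, which helps the ribosome through difficult stretches, stood apart at 846.4, 694.2 and 604.2, highest in the duodenum with a ratio of 1.40 (1.37 to 1.43).

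Both cytoplasmic actins were members. The beta-actin gene ACTB, which the study used as the loading control of its quantitative PCR, had 820.9 in duodenum, 941.2 in cecum and 902.9 in colon, a ratio of 1.15 (1.13 to 1.16). The gamma-actin gene ACTG1 had 807.0, 953.9 and 982.4, a ratio of 1.22 (1.21 to 1.23). Cofilin 1 (CFL1), which severs actin filaments, had 734.2, 961.4 and 986.6, and TMSB4X, which holds actin monomers, had 395.5, 518.6 and 422.5. All 4 were lowest in the duodenum, an order found in only 26 of the 161. The other abundant cytoskeleton genes were not steady: the keratin KRT8 had 822.8, 1635 and 1198, the tropomyosins TPM1 350.7, 977.7 and 781.5 and TPM2 344.9, 1261 and 807.1. At 300 or more, 4 of 7 genes of the list were members, beside 83 of all 113 symbols. In the whole list 12 of 24 genes were below 1.5, beside 62.9% of all symbols.

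Markers of other tissue layers moved in the same direction as the actins. The smooth muscle markers with a value, 4 of 5 listed (ACTG2, CNN1, DES and TAGLN, none at 0), summed to an RPKM of 935.9 in duodenum, 4771 in cecum and 3394 in colon. The fibroblast markers, 3 of 5 (COL1A2, COL3A1 and DCN), summed to 350.2, 1217 and 611.7. The endothelial markers, 2 of 4, summed to 31.9, 76.7 and 44.4. The part of these differences in the levels of ACTB, ACTG1, CFL1 and TMSB4X was not tested. In a bulk sample, a different number of cells of a type and a different amount of RNA per cell cannot be told apart. The epithelial markers with a value, 4 of 10 (CDX1, EPCAM, KRT20 and KRT8), summed to 1835, 2679 and 2094, and none of the 4 was at 0. The leukocyte markers, 5 of 7, summed to 279.8, 197.0 and 223.0, and the plasma cell markers JCHAIN and MZB1, 2 of 4, to 6812, 3802 and 711.2. No red cell marker was matched.

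EPCAM, an adhesion protein of nearly all epithelial cells, was among the steadiest members, at 582.1 in duodenum, 550.3 in cecum and 596.2 in colon, a ratio of 1.08 (1.07 to 1.10). It was the only 1 of the 4 epithelial markers below 1.5. The membrane-binding annexin ANXA2 had 605.9, 643.3 and 438.9. It was thus lowest in the colon, with a ratio of 1.47. Steady genes were a minority in this list of junction, surface and secreted proteins, 9 of 28 (32.1%) with a median ratio of 2.15. Over all symbols the share was 62.9% and the median ratio 1.36. Of its 6 genes at 300 or more, 4 were members, TFF3, EPCAM and ANXA2 among them, beside 83 of all 113 symbols. Those above the ratio limit were TFF2 and the tight junction protein CLDN7, at 370.8, 504.6 and 569.6, just above the limit with a ratio of 1.54.

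**Figure D3:**
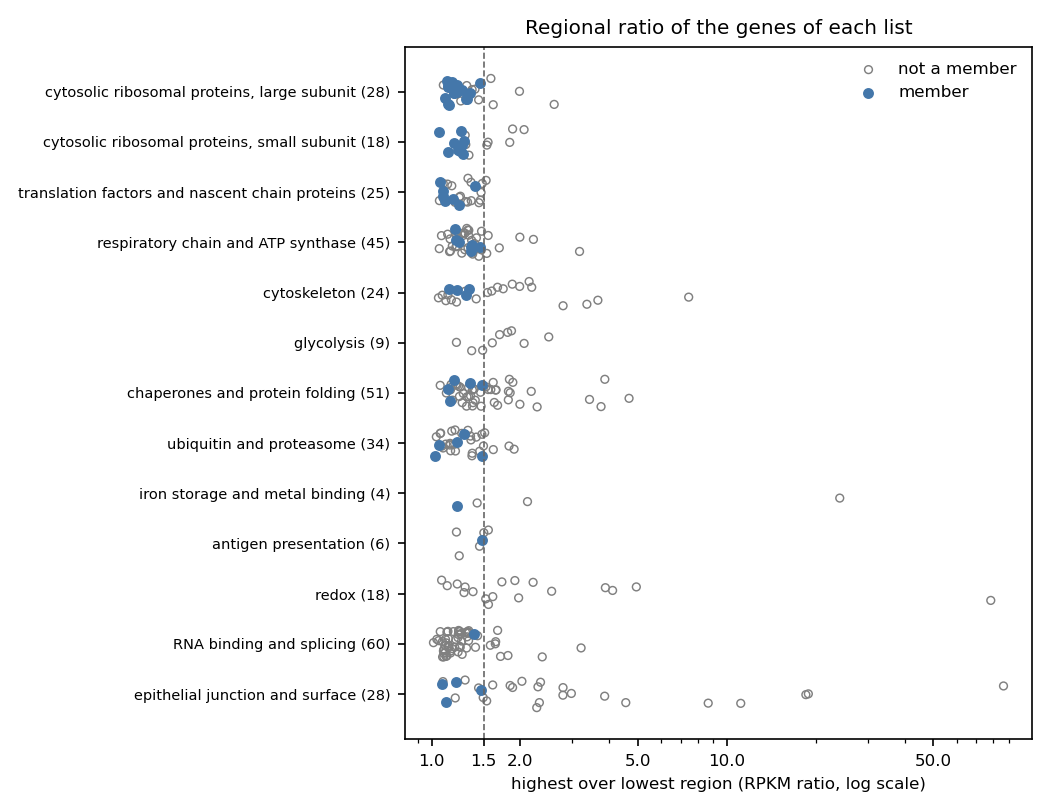
Highest over lowest ratio (horizontal log axis) of each gene of the lists that reached an RPKM of 1 in every region, 1 point per gene, with the number of genes in brackets and the steady abundant genes filled. The dashed line is the limit of 1.5. Translation factors lie left of it in 24 of 25 cases, the epithelial list in 9 of 28, beside 62.9% of all symbols. B2M is drawn open, since its locus was kept as LOC443295.

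Of the oxidative phosphorylation list, all 7 genes at 300 or more were members, and all 7 code for ATP synthase, the enzyme that makes ATP from the proton gradient of the mitochondrion. ATP5PD had 541.3 in duodenum, 595.9 in cecum and 437.3 in colon. The genes of the membrane ring ran from 428.7, 511.9 and 427.2 (ATP5MC2) over 559.4, 525.5 and 407.1 (ATP5MC1) to 550.1, 517.1 and 376.3 (ATP5MC3). ATP5PO had 523.6, 492.1 and 384.2, the alpha subunit ATP5F1A 458.4, 458.4 and 371.6, and ATP5F1D 305.3, 368.0 and 323.8. The colon was lowest in 6 of these 7, the exception being ATP5F1D, which was lowest in the duodenum. Over the list 39 of 45 genes (86.7%) were below 1.5, beside 62.9% of all symbols, and 83 of all 113 symbols at 300 or more were members. NDUFA4, a respiratory chain protein, was below 300 in cecum and colon and so was no member, at 409.5, 144.0 and 129.2.

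Carriers that feed this enzyme were steady as well. SLC25A6, which exchanges ADP for ATP across the inner membrane, had 820.3, 994.5 and 954.4. The phosphate carrier SLC25A3 had 306.1, 368.0 and 309.8. Both were lowest in the duodenum and highest in the cecum, with ratios of 1.21 (1.19 to 1.23) and 1.20 (1.18 to 1.23). No glycolytic gene was steady and abundant. GAPDH had 626.5, 1006 and 784.0 and ALDOA 317.5, 592.1 and 514.5. In the list 3 of the 9 genes (33.3%) were below 1.5, beside 62.9% of all symbols.

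Chaperones help proteins to fold, in the cytosol or in the endoplasmic reticulum. HSPA8, the constitutive cytosolic chaperone, had 719.8 in duodenum, 801.2 in cecum and 696.0 in colon. CALR, PDIA3 and PPIB, which work in the endoplasmic reticulum, had 812.2, 682.8 and 604.4, then 767.7, 747.1 and 676.2, and then 625.7, 547.5 and 524.2. HSP90AB1, of the cytosol, had 475.5, 441.6 and 322.1. The last 4 shared the order of duodenum, cecum, colon, with ratios from 1.14 for PDIA3 to 1.48 for HSP90AB1. These 5 were all the chaperone genes at 300 or more in every region, a level at which 83 of all 113 symbols were members. In the list 31 of 51 (60.8%) were below 1.5, near the 62.9% over all symbols. The summed markers of plasma cells, which secrete antibody through the endoplasmic reticulum, had the same order, and their part in these levels was not tested.

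Further members had other roles. FTH1, the ferritin heavy chain that stores iron, had 772.0, 782.9 and 639.9. The transcript matched to the light chain gene FTL was low at 25.02, 11.8 and 13.0. Transcripts without a symbol could not be assigned to FTL, so the level of the gene is not settled. Of the polyamine genes, OAZ1, the antizyme that restrains polyamine synthesis, was steadier than all other members but UBB and XM_004012604.2, at 479.5, 502.2 and 504.2, with a ratio of 1.05 (1.03 to 1.07). SAT1, which acetylates polyamines for export, had 342.7, 382.8 and 429.1. PTMA, an acidic nuclear protein, had 758.2, 689.9 and 515.2 and the RNA-binding protein YBX1 547.5, 645.2 and 463.1. The tetraspanin CD81 had 569.3, 511.4 and 431.4, and the small GTPase RAC1 347.0, 367.5 and 328.8. TIMP2, an inhibitor of matrix metalloproteinases, was highest in the colon and lowest in the cecum, at 370.1, 304.9 and 451.9. Of the lists these genes come from, 52 of 60 RNA-binding and splicing genes (86.7%), 4 of 6 antigen presentation genes (66.7%), 2 of 4 iron genes and 6 of 18 redox genes (33.3%) were below 1.5. Over all symbols it was 62.9%. The redox list had no member, its 2 genes at 300 or more being TXN (719.0, 797.2 and 511.8) and PRDX1 (486.7, 602.9 and 314.9). Transcripts without a symbol made up 4 of the 10 steadiest: XM_004012604.2 (ratio 1.04), XM_012149294.1 (1.06), XM_012111210.1 (1.06) and XM_004017413.2 (1.09).

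Of 19 genes in common use as references for quantitative PCR, 10 could be paired with a transcript. In 9 of these 10 the ratio was below 1.5, GAPDH being the exception with 1.61. Over the 5288 genes with a symbol and RPKM of at least 1 in every region the share was 62.9%. Members were 4 of them: ACTB, ACTG1, RPL13A (1247, 1208 and 1063) and RPS18 (2462, 2370 and 1944). These 4 do not count B2M (6263, 5049 and 5589, ratio 1.24), whose locus was kept as the member LOC443295. TUBB was steadier than these 4 at a lower level, with an RPKM of 163.6 in duodenum, 172.5 in cecum and 171.1 in colon and a ratio of 1.05. YWHAZ had 79.2, 93.9 and 82.5. ACTB and ACTG1 were lowest in the duodenum and RPL13A and RPS18 lowest in the colon.

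Within the limit of 1.5 the remaining differences were not evenly spread over the regions. The colon was lowest in 127 of the 161 (78.9%), the duodenum in 26 and the cecum in 8. The cecum was highest in 99, the duodenum in 52 and the colon in 10. Over the 161 the median log2 ratio was 0.08 between cecum and duodenum (cecum over duodenum), -0.18 for colon relative to duodenum and -0.23 relative to cecum. For the 14040 transcripts with RPKM of at least 1 everywhere, the same medians were 0.05, -0.03 and -0.10, and the colon was lowest in 38.8%. RPKM divides by the whole read total, and the 10 transcripts with the most reads took 13.9% of that total in the colon against 6.64% in duodenum and 5.64% in cecum. With totals that leave out those 10, the colon was lowest in 91 of the same 161 transcripts, and their median log2 ratio of colon over duodenum moved from -0.18 to -0.06. Scaling by the trimmed mean of M values (TMM) left it lowest in 122, but moved the median of cecum over duodenum to -0.01, so that direction depended on the scaling.

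**Figure D4:**
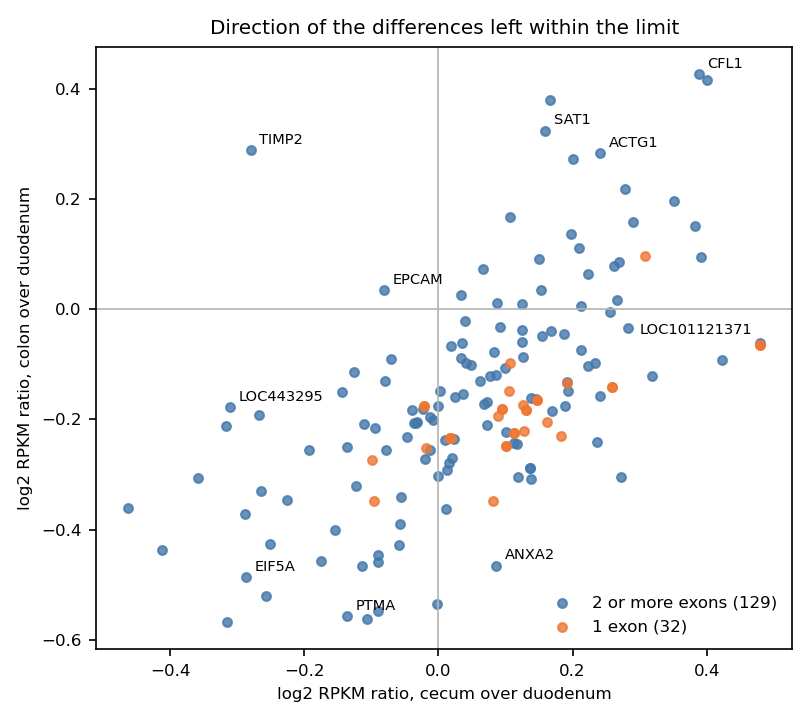
Log2 RPKM ratio of cecum over duodenum (horizontal) and of colon over duodenum (vertical) for the 161 steady transcripts, 1 point each. Orange points are the 32 transcripts with 1 exon in the files, blue ones the 129 with more. Most points lie below the horizontal line at 0, and the actins and CFL1 lie at the upper right.

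Transcripts with a single exon in the files were common here, 32 of 161 (19.9%) against 3.94% of the 14040 and 0 of the other 41 abundant transcripts. The steady transcripts were also short, with a median summed exon length of 672 bases and 5 exons against 2555 bases and 8 exons for the 14040. The other 41 abundant transcripts were short too, with medians of 842 bases and 6 exons. The rule used neither exon number nor length except through RPKM. Of the 32, 20 had no symbol and 10 only a LOC number, and the named ones were RPL27A and RPS25. The colon was lowest in 31 of the 32 and the cecum highest in 27, as in LOC101121371 with 420.9, 587.0 and 402.4. Among the 32, 20 lay in the groups of overlapping transcripts described next, so these counts hold some loci more than once.

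Some members count the same reads more than once, since the rule joined transcripts only on an identical exon. In 6 pairs an exon carried exactly the same reads at positions that overlapped but did not match, as for RPL27A and XM_012139119.1. Including pairs whose log2 ratios differed by no more than 0.005, 17 overlapping pairs formed 13 groups of 28 transcripts, 20 of them with a single exon. Counted once each, these groups would leave 146 steady transcripts. A further 7 pairs with such near-equal ratios lay at positions that did not overlap. RACK1, with 8 exons, and the single-exon transcript LOC101119090 were one, with 826.0, 913.3 and 737.7 for the first and 486.5, 538.8 and 434.1 for the second. EEF1B2 and XM_012162565.1 were another. The 7 were found among 12880 pairs, and whether they share reads was not tested.

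The exons of a transcript give a view of its level that the sum does not show. Of the members, 106 had at least 3 exons of 50 bases or more with at least 100 reads in every region. Their 690 exons had a ratio below 1.5 in 637 cases (92.3%), and in 78 of the 106 every exon did. These exons are the same reads that chose the transcript, so the count is a description. Between the exons of a transcript in 1 library the RPKM differed far more, by a median of 4.48-fold in duodenum, 4.43-fold in cecum and 4.48-fold in colon, against a median of 1.22 between regions. In 105 of the 106 the fold between exons was above the ratio between regions. The rule held the ratio between regions below 1.5 and set no limit between exons. This comparison is therefore a description and no finding. The profile along the exons was nearly the same in each library: log2 exon levels relative to their transcript correlated across the 690 exons with Pearson's r of 0.988 for duodenum and cecum, 0.987 for duodenum and colon and 0.989 for cecum and colon. These points share length, base composition and library preparation between the regions.

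ACTB ran from 276.3 in exon 1 to 1408 in exon 5 in duodenum, from 250.4 to 1580 in cecum and from 264.8 to 1510 in colon. EPCAM was flatter, with usable exons from 448.8 to 905.1 in duodenum, 432.4 to 834.7 in cecum and 467.4 to 865.1 in colon. In RPL3 the last exon had 411.1, 305.7 and 316.3 while exon 4 had 3133, 3546 and 3005. The usable exons of RACK1 ran from 392.4 to 1721 in duodenum, with ratios between regions from 1.18 to 1.32. The shape along each of these genes was shared by the 3 regions. In other members some exons passed the limit that the sum did not. Of 5 usable exons of RPL36A, 1 was below 1.5, with exon ratios from 1.44 to 1.69, in XM_012131137.1 it was 13 of 24, and in XM_012149089.1 it was 5 of 6, the other exon having a ratio of 6.99.

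**Figure D5:**
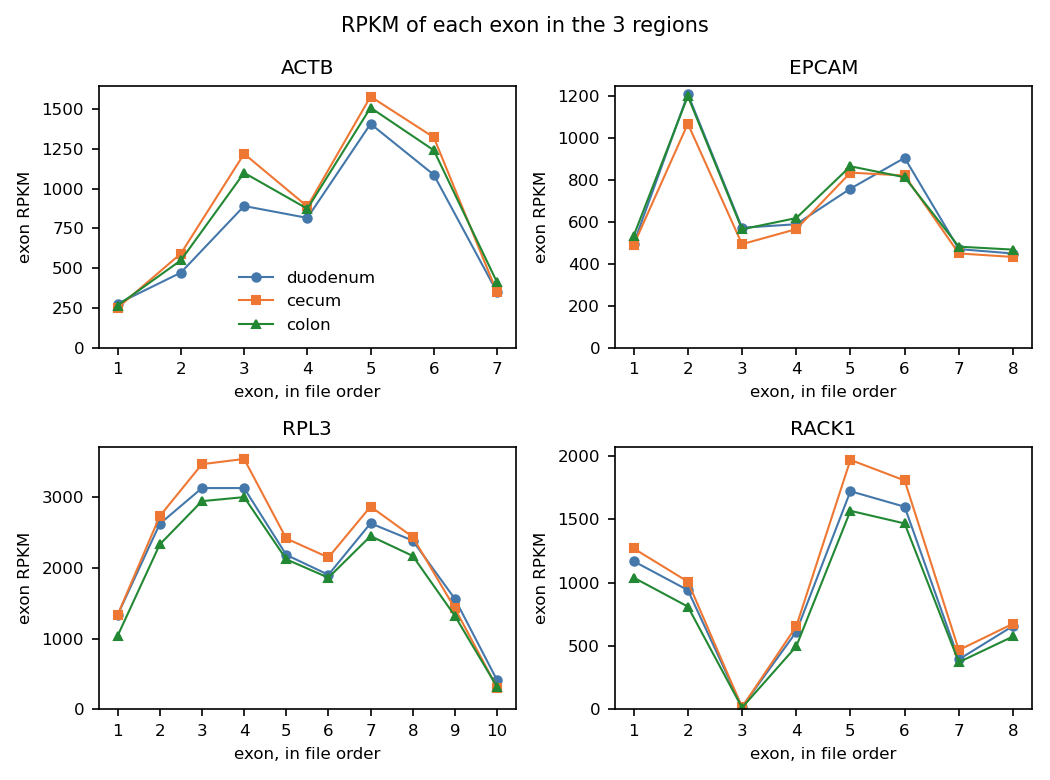
RPKM of each exon (vertical, from 0) in file order (horizontal) for ACTB, EPCAM, RPL3 and RACK1 in duodenum (circles), cecum (squares) and colon (triangles), 1 pooled library each. The 3 lines follow each other, while exons of 1 gene differ, in ACTB from 276.3 to 1408 in duodenum.

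Exon coverage, deposited as a percent of the length, was high for these transcripts. In the duodenum 680 of 858 exon rows of the members (79.3%) were covered over their whole length, in the cecum 76.6% and in the colon 77.7%. Over all exon rows in the same libraries the shares were 40.9%, 38.9% and 41.6%. The members were chosen for their high RPKM, and more reads cover more of an exon. No share was taken for other transcripts of like level, so the difference is no finding about the members.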

How the data were processed

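For each of the 3 regions the authors deposited 1 row per exon with an expected count of its reads, in most rows not a whole number, its RPKM, and its coverage in percent. The count scaled to exon length and header total gave the deposited RPKM for at least 99.5% of rows, within 0.1% or 0.001. The submitters' processing notes name BWA and Bowtie 0.12.2, while the study's methods describe Bowtie2 and RSEM. The files name no genome build and no chromosome, and how these exon counts treated multiply mapping reads is not given in the sources used here. Transcript RPKM was the summed reads over summed exon length and header total.

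No statistical test was run, since each region has 1 library. Ratios have exact 95% Clopper-Pearson intervals from rounded counts, and shares have 95% Wilson intervals. The floor of 3 reads is 5.90e-06% of the header total in duodenum, 6.48e-06% in cecum and 5.57e-06% in colon. Symbols and gene order came from RefSeq (ARS-UI_Ramb_v3.0, no coordinates used), symbols by accession, with or without the version, or through a shared exon: 25422 of 68818 transcripts were named, and 10881 of 10904 exons shared by named transcripts had 1 symbol. Named genes were the 10 highest, the 10 steadiest, those nearest the limits, the leading members of each list, every ubiquitin, actin, ferritin and elongation factor gene, the 10 least steady and the reference genes. A few genes named by this rule are not reported here. Paralogs, contrast genes of the same lists and examples of exons were added after their values were seen. The members and lists were chosen with earlier results of these data known. Sequences were not used here. Python 3.11.15, numpy 2.4.6, pandas 2.3.3, scipy 1.17.1, matplotlib 3.10.9, R 4.3.3 and edgeR 4.0.16 (TMM factors only) were used. Alternatives covered scaling, exon summary, limits, joining and pairs of regions.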

Additional observations from a re-analysis of the deposited data

How the results depend on the processing

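The count of 161 changed by more than 1.5 times with the limits of the rule and with joining: it was 503 at RPKM of at least 100, 37 at 1000, 97 at a ratio limit of 25% in place of 50%, and 266 with every transcript counted. The share of 79.7% moved to 86.0% at 1000, 47.5% at the limit of 25%, 90.6% at a limit of 100%, 85.7% with scaling by summed exon reads, 86.0% with only duodenum and cecum, and 90.1% with only cecum and colon. Ribosomal members fell in number from 26 to 17 at the limit of 25%. Scaling by summed exon reads left 120 transcripts, 114 of them among the 161. TMM scaling kept 157 of the 161, median-ratio scaling 158, totals without the 10 leading transcripts 160, and the median over exons 148. Of 814 ratios of 74 named members under alternatives, 807 stayed below 1.5. The 7 others were 3 of TIMP2 (1.57, 1.56 and 1.62 with TMM, median-ratio and totals without the 10 leading transcripts) and, with summed exon reads, PTMA (1.52), PSMB8 (1.53), ATP5MC3 (1.51) and HSP90AB1 (1.52). No paired analysis was possible because each region has 1 library, and none could be left out as a replicate. How much differences between animals or in dissection add to a ratio was not measured.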
